A study of Mus musculus with 18 samples.

Results

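The 10 genes described here, Cd3d, Cd3e, Cd3g, Cd8a, Klrd1, Klrk1, Ncr1, Nkg7, Il2rb and Eomes, are markers of natural killer (NK) cells and T cells. They were taken by name from 18193 genes with an assigned probe set, the group of short oligonucleotides by which an array reads a transcript, and 16 probe sets carried one of them as their single gene symbol. Cd8a had 5 probe sets, Il2rb and Eomes had 2 each, and the others had 1. RNA came from 18 melanoma allografts of iNRAS-475, a mouse melanoma line in which doxycycline holds an NRAS oncogene on. The line is a single model, so the 18 tumours are biological replicates of that line and not of melanoma. It was grown in the skin of nude mice given drinking water with 2 mg/ml doxycycline, and after 6 weeks the tumours measured 200 to 500 mm3. The 6 vehicle tumours kept doxycycline and received vehicle. The 6 MEK inhibitor tumours kept doxycycline and received 100 mg/kg AZD6244 (selumetinib) for 4 days. The 6 NRAS-off tumours had doxycycline withdrawn for 4 days, so withdrawal of the drug itself and loss of the oncogene cannot be told apart. The labels used here give no age of the mice and do not say whether the NRAS-off mice were dosed with vehicle.

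NK cells kill stressed or transformed cells without prior sensitisation, and they read their targets through activating and inhibitory receptors. T cells recognise antigen through a T cell receptor that signals through the CD3 chains. Both kinds of killer cell store toxic proteins in granules and depend on interleukin-15 or interleukin-2 for survival. Nude mice have no functional thymus and therefore lack the usual mature T cells. They keep NK cells and B cells, and T cells that mature outside the thymus can be found in them.

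Members of the same arm correlated at 0.9871 to 0.997 over all probe sets on the log2 scale, and array medians lay between 72.3 and 78.5 intensity units. Of the melanocytic markers, Sox10 was read at 7901 to 16609 in the 18 tumours, whereas Tyr and Tyrp1 stayed between 12.4 and 21.8. NRAS-off replicate 2 held skin transcript: its Krt14 intensity was 6785, against 18.3 to 161 in the other 17 tumours. NRAS-off replicate 6 stood apart in lymphocyte genes, and the calls of named genes that are lost without it are given with both values.

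Before the changes, the levels were set against genes that a tumour is not known to transcribe, because the table has no detection calls. Olfactory receptor genes served for this, with 44 probe sets and mean intensities of 9.51 to 42.6 (median 18.3). In vehicle tumours Cd3d, Cd3e, Cd8a, Nkg7 and Eomes lay above all 44 on their brightest probe sets, at means of 63.8 ± 20.4, 91.3 ± 11.8, 52.9 ± 5.53, 60.2 ± 33.9 and 158.9 ± 13.4 (SD, n = 6). Cd3g, Klrd1 and Il2rb lay above 42 of 44, at 36.0 ± 12.8, 36.1 ± 7.85 and 37.5 ± 6.48. The 3 dimmest Cd8a probe sets lay above 11, 18 and 24 of 44 in vehicle tumours. Klrk1 (19.5 ± 3.49) and Ncr1 (19.4 ± 2.43) lay above 24 of 44, in the middle of that range. In NRAS-off tumours Klrk1 reached 34.5 ± 19.4 and Ncr1 29.2 ± 5.92, above 42 and 40 of 44. Levels of different genes are not ranked here, since each probe set has its own brightness.

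**Figure D1:**
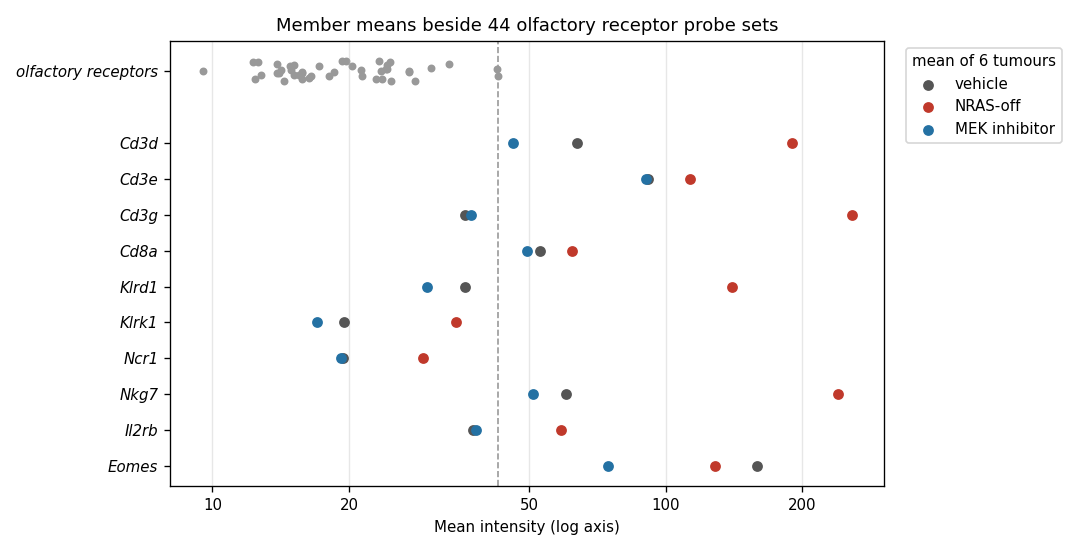
Mean intensity of each marker gene in the 3 groups (6 tumours each, log axis), with the all-tumour means of 44 olfactory receptor probe sets in grey on the top line. The dashed line marks the highest olfactory mean, 42.6, and the vehicle means of Cd3g, Klrd1, Il2rb, Klrk1 and Ncr1 lie below it.

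Changes were tested on log2(intensity + 16) with limma over 33777 probe sets, and a change was called at an adjusted p under 0.05. Of the 10 genes, 8 passed the filter on low values and were tested. Klrk1 and Ncr1 were not, with mean levels equivalent to intensities of 22.3 and 22.2 against a limit of 23.5. The closest probe set above the limit was the less bright Il2rb probe set, at 34.6.

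NRAS-off tumours were first set against vehicle tumours, a contrast that joins loss of the oncogene with withdrawal of doxycycline. Cd3d, Cd3e, Cd3g, Klrd1, Nkg7 and Il2rb rose, so 6 of 8 tested marker genes were called higher and 0 lower. In all genes tested, 31.5% were called higher and 27.1% lower. The median change of the 8 genes was 0.79 on the log2 scale, beside 0.0036 for the 15005 genes tested. In MEK inhibitor tumours none of the 8 rose against vehicle and Eomes fell, beside 23.8% of all genes called higher and 20.5% lower. Between NRAS-off and MEK inhibitor tumours 6 of 8 were higher in NRAS-off and 0 lower, beside 23.8% and 21.9% of all genes. The comparisons with vehicle share the vehicle tumours, and the NRAS-off tumours also enter the last comparison. In whole tumour pieces more cells of a type and more RNA per cell cannot be told apart.

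**Figure D2:**
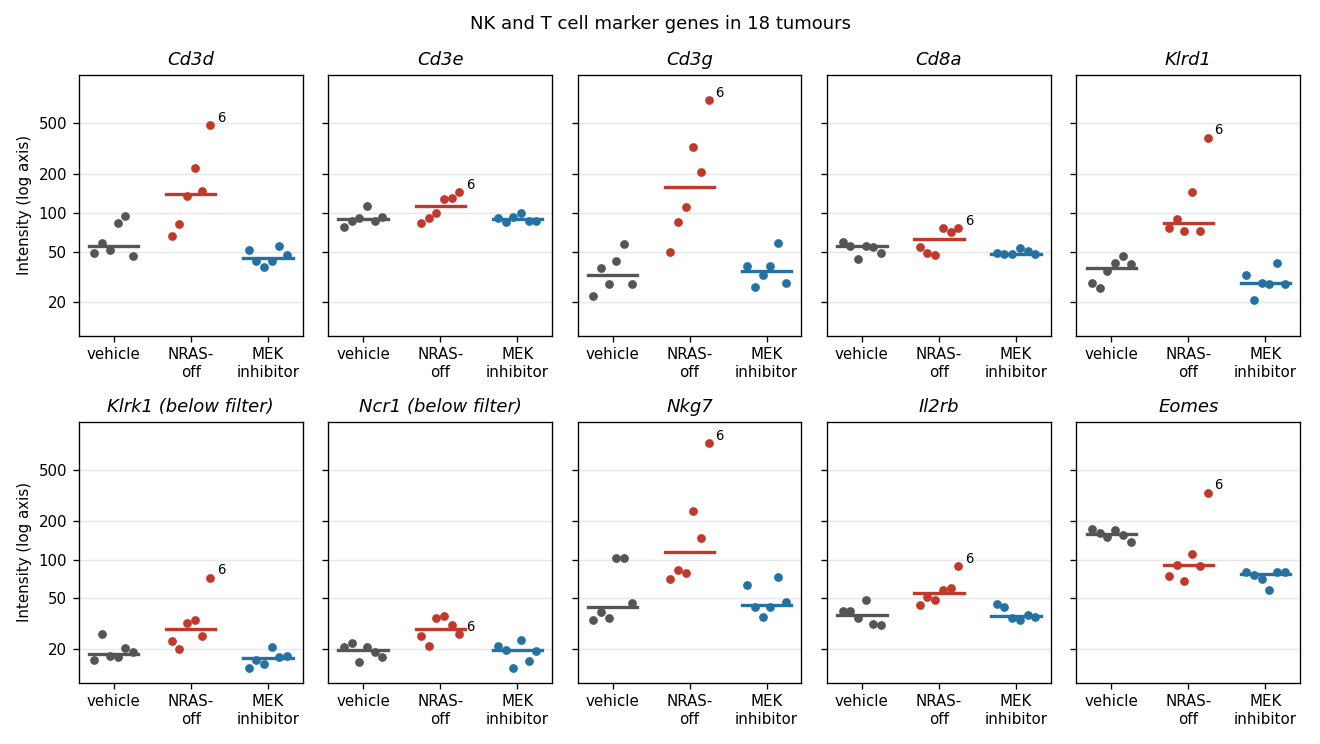
Intensity (log axis) of the brightest probe set of each marker gene in every tumour, with a bar at the group median. The number 6 marks NRAS-off replicate 6. Klrd1 shows no overlap between NRAS-off and the other groups, and in Eomes the vehicle tumours lie above all NRAS-off tumours but replicate 6.

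The CD3 genes encode the signalling chains of the T cell receptor complex. Cd3g, the gamma chain, had the largest change among the 8 tested genes. Its intensity was 49.5, 85.5, 112, 327, 208 and 759 in NRAS-off replicates 1 to 6. Vehicle tumours ran from 22.6 to 57.7 (median 32.7) and MEK inhibitor tumours from 26.4 to 58.5 (median 35.5). All NRAS-off tumours except replicate 1 lay above both other groups. Cd3g rose by 1.92 ± 0.41 (log2 change ± SE, 3.79-fold) against vehicle (adjusted p = 0.000478). It was higher by 1.88 ± 0.41 than in MEK inhibitor tumours (adjusted p = 0.000906). Without NRAS-off replicate 6 the rise against vehicle was 1.52 (adjusted p = 0.000355).

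Cd3d, the delta chain, followed the gamma chain across tumours. Its NRAS-off values were 65.7, 82.1, 135, 224, 147 and 485, whereas vehicle tumours ran from 45.8 to 94.6 (median 54.8). NRAS-off replicates 1 and 2 lay within the vehicle range and the other 4 above it. All 6 exceeded the MEK inhibitor tumours, which ran from 38.0 to 55.5 (median 44.6). A gap of this kind against MEK inhibitor was seen in 12.0% of probe sets. Cd3d rose by 1.12 ± 0.30 (2.18-fold, adjusted p = 0.00376) against vehicle and was higher by 1.46 ± 0.30 than under MEK inhibitor (adjusted p = 0.000638). Without NRAS-off replicate 6 the rise against vehicle was 0.81 (adjusted p = 0.00393).

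Cd3e, the epsilon chain, moved far less. NRAS-off tumours ran from 83.6 to 146 (median 114), vehicle tumours from 77.6 to 113 (median 89.3) and MEK inhibitor tumours from 84.5 to 100.1 (median 89.2). NRAS-off replicates 4, 5 and 6, at 128, 129.8 and 146, were the ones above every tumour of the other groups. The rise of 0.25 ± 0.10 against vehicle passed narrowly (adjusted p = 0.0481). It was lost in 14 of 18 fits that left out a tumour (adjusted p 0.0505 to 0.132), and was kept when vehicle replicate 4 or NRAS-off replicate 1, 2 or 3 was left out. Against MEK inhibitor the difference was 0.26 ± 0.10 and did not pass (adjusted p = 0.0536). It passed in 5 of 18 fits that left out a tumour (adjusted p 0.0118 to 0.0466), namely vehicle replicate 4, NRAS-off replicates 1, 2 and 3, and MEK inhibitor replicate 4.

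Cd3g and Cd3d lie head to head on chromosome 9, with 1355 bases between their start sites, and Cd3e lies further along the same chromosome. The windows from 250 bases before to 50 after the start are shown for Cd3g and Cd3d, the pair of members that changed together, for Nkg7, which changed with them, and for Eomes, which did not. They come from RefSeq on build GRCm38.p6, where 8 of the 10 genes had an entry and Klrd1 and Il2rb had none. The windows are chr9:44980382-44980681 on the minus strand for Cd3g, chr9:44981536-44981835 on the plus strand for Cd3d, chr7:43436888-43437187 on the plus strand for Nkg7, and chr9:118477939-118478238 on the plus strand for Eomes. Capitals mark exact matches on either strand to AGGTGT, the core of sites for T-box factors such as EOMES, to TGTGGT, the core for RUNX factors, and to GGAAGT, a core for ETS factors.
Cd3g: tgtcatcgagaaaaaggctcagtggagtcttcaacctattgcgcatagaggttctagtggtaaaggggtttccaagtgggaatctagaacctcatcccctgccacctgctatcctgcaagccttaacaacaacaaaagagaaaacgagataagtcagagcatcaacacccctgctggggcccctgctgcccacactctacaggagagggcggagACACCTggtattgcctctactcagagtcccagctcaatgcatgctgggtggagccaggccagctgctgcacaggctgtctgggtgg
Cd3d: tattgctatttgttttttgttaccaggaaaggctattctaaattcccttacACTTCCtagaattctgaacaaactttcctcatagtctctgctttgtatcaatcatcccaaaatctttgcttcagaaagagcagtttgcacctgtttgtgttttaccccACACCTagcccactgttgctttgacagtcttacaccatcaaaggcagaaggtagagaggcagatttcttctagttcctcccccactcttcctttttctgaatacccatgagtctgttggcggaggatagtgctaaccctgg
Nkg7: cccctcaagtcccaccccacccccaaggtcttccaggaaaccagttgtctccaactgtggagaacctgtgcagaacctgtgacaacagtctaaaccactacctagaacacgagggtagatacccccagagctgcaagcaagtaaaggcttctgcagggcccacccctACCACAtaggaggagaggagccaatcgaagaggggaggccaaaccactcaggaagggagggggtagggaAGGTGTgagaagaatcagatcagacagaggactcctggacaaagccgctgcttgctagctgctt
Eomes: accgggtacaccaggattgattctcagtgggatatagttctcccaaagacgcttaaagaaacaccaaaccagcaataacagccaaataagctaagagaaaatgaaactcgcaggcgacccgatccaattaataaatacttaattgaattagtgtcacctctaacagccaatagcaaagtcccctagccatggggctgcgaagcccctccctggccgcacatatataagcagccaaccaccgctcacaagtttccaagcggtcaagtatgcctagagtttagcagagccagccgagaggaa

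Over the 9 windows of the members (Ncr1 had 2 that overlap), 4 held the T-box letters, beside 13.7% of 32851 promoter windows of the same length. The RUNX letters were in 4 of the 9 (16.8% of all windows), counting both overlapping Ncr1 windows, and the ETS letters in 2 (23.8%). The searches for CAGCTG, TTCNNNGAA and AGATAA matched 2, 2 and 1 of the 9, beside 16.3%, 8.3% and 11.2% of all windows. The Cd3g and Cd3d windows each held 1 T-box match, Nkg7 held 1 T-box and 1 RUNX match, and the Eomes window held none of the 6. The window of Cd3e, which moved far less, held the most T-box matches, 2, and 1 ETS match. The Cd8a, Klrk1 and Ncr1 windows held no T-box match. A match describes the letters and not binding.

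CD8 is the coreceptor of cytotoxic T cells, and Cd8a encodes its alpha chain. Its brightest probe set read 43.9 to 59.0 (median 54.9) in vehicle, 46.6 to 75.9 (median 62.4) in NRAS-off and 47.6 to 53.6 (median 48.2) in MEK inhibitor tumours. NRAS-off replicates 4, 5 and 6, at 75.9, 70.5 and 75.9, were above all other tumours. The difference between NRAS-off and vehicle was 0.16 ± 0.09 and did not pass (adjusted p = 0.137). Against MEK inhibitor it was 0.24 ± 0.09 (adjusted p = 0.0444), a call lost in 10 of 18 fits that left out a tumour (adjusted p 0.0504 to 0.117). Those 10 were vehicle replicates 4 and 5, NRAS-off replicates 4, 5 and 6, and MEK inhibitor replicates 1, 2, 3, 5 and 6.

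The other Cd8a probe sets differed in which tumours were high. Probe set 1440164_x_at differed by 0.22 ± 0.10 from vehicle (adjusted p = 0.0654). Its highest NRAS-off tumour was replicate 5, at 68.0, below vehicle replicate 2 at 70.4. The 3 remaining probe sets were below the filter. Among these, 1444078_at read 95.1 in NRAS-off replicate 6, 38.7 in replicate 4 and 13.9 to 29.5 in the other 4 NRAS-off tumours. Probe set 1451673_at read 61.1 in replicate 6, 29.8 in replicate 4 and 17.3 to 25.2 in the other 4. Vehicle tumours stayed at 14.5 to 27.8 and 14.8 to 18.5 in this pair. The least bright, 1440811_x_at, read 12.1 to 23.6 in all 18 tumours.

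Among the NK cell receptors, Klrd1 (CD94) pairs with NKG2 proteins to read a nonclassical class I molecule. NRAS-off replicates 1 to 6 read 75.9, 90.0, 71.7, 145, 72.7 and 386. Vehicle tumours ran from 25.8 to 46.2 (median 37.5) and MEK inhibitor tumours from 20.9 to 40.8 (median 28.2). The lowest NRAS-off tumour exceeded the highest of both other groups, and Klrd1 was the marker gene for which this held against both. Such a gap in the upward direction was seen in 17.3% of probe sets against vehicle and in 12.0% against MEK inhibitor. Klrd1 rose by 1.34 ± 0.27 (2.53-fold, adjusted p = 0.000327) against vehicle and was 1.52 ± 0.27 higher than under MEK inhibitor (adjusted p = 0.000146). Without NRAS-off replicate 6 the rise was 1.01 (adjusted p = 1.15e-05), and without replicates 4 and 6 it was 0.86 (adjusted p = 1.08e-05).

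Klrk1 encodes NKG2D, an activating receptor for stress-induced ligands. NRAS-off tumours read 23.1, 20.1, 31.8, 33.7, 25.6 and 72.6, vehicle tumours 16.5 to 26.1 (median 18.4) and MEK inhibitor tumours 14.3 to 20.7 (median 16.9). NRAS-off replicates 3, 4 and 6 exceeded both other groups, and replicates 1 and 2 overlapped vehicle. In the fit without a filter the change against vehicle was 0.44 (adjusted p = 0.0245), and without replicate 6 as well it was 0.26 (adjusted p = 0.0159).

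Ncr1 encodes NKp46, an activating receptor found on NK cells and some innate lymphoid cells. NRAS-off tumours read 25.4, 21.2, 35.3, 36.2, 30.9 and 26.4, vehicle tumours 15.9 to 22.2 (median 19.9) and MEK inhibitor tumours 14.3 to 23.7 (median 19.6). Replicate 2 lay within the vehicle range and the other 5 above it. Replicate 6, the highest tumour for the other 9 genes, lay below replicates 3, 4 and 5 for Ncr1. In the fit without a filter the change was 0.35 (adjusted p = 0.00192), from a level within the olfactory range.

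Nkg7 encodes a membrane protein of cytotoxic granules. NRAS-off tumours read 71.1, 82.8, 79.1, 242.5, 147 and 815. Vehicle tumours divided into replicates 4 and 5, at 104 and 103.5, and the other 4 at 33.9 to 46. The same pair of vehicle tumours was highest for Cd3d (84.0 and 94.6), Cd3g (42.4 and 57.7) and Klrd1 (40.9 and 46.2). MEK inhibitor tumours ran from 35.9 to 73.7 (median 44.6), with replicate 5 highest, as it was for Cd3d, Cd3g and Klrd1. Nkg7 rose by 1.31 ± 0.42 (2.48-fold, adjusted p = 0.0127) against vehicle. Without NRAS-off replicate 6 the rise was 0.86 (adjusted p = 0.0173), and without replicates 4 and 6 it was 0.61 and no longer passed (adjusted p = 0.0640). NRAS-off exceeded MEK inhibitor by 1.41 ± 0.42 (adjusted p = 0.0108).

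Il2rb encodes the beta chain shared by the receptors for interleukin-2 and interleukin-15. On its brighter probe set, 1448759_at, NRAS-off tumours read 44.5, 50.9, 48.5, 58.3, 59.8 and 89.4, vehicle tumours 30.8 to 48.1 (median 37.2) and MEK inhibitor tumours 33.9 to 45.3 (median 36.3). Replicate 1 overlapped vehicle, and the other 5 lay above it. Il2rb rose by 0.46 ± 0.11 (1.38-fold, adjusted p = 0.00137), and by 0.36 without replicate 6 (adjusted p = 0.00172). The other probe set, 1417546_at, stayed at 27.6 to 42.3 in all tumours and did not pass (0.04 ± 0.06, adjusted p = 0.62). The probe sets of this gene therefore disagree.

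**Figure D3:**
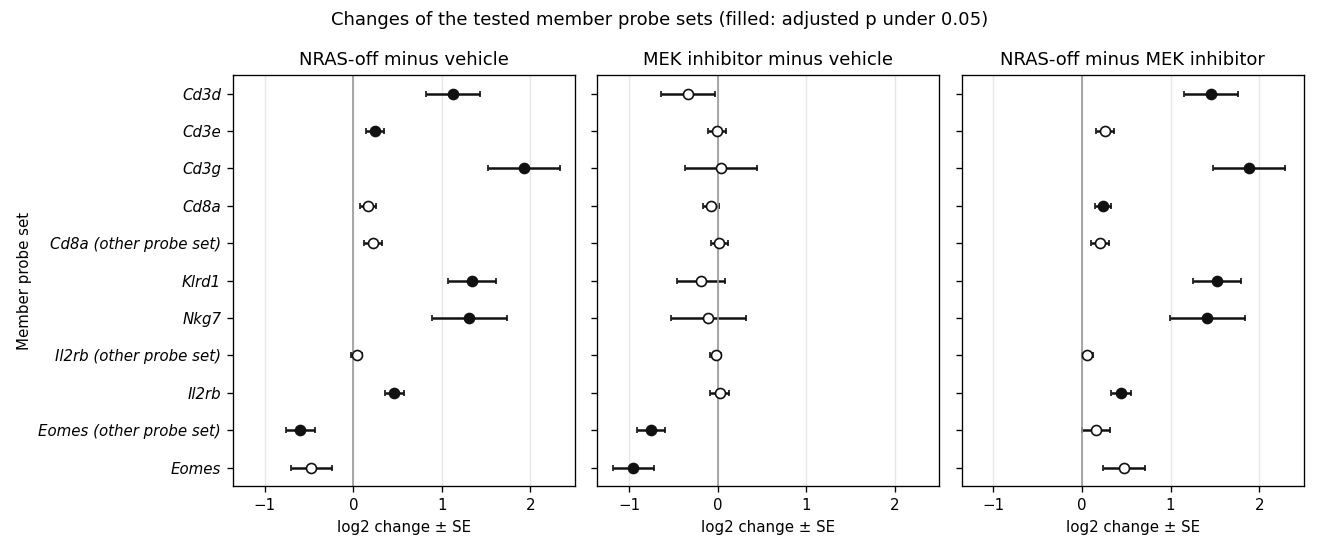
Log2 change ± SE of the 11 marker probe sets tested, in the 3 comparisons (limma, 6 tumours per group; filled points have an adjusted p under 0.05). Cd3g, Klrd1, Nkg7 and Cd3d lie to the right in both panels with NRAS-off tumours, and the Eomes probe sets lie to the left of 0 in both panels against vehicle.

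Eomes encodes a T-box transcription factor of NK cells and memory CD8 T cells, and it did not follow the other members. On its brighter probe set, 1435172_at, vehicle tumours read 138 to 175 (median 159). MEK inhibitor tumours read 58.4 to 80.8 (median 78.0), with no overlap. Eomes fell by 0.95 ± 0.23 under the MEK inhibitor (1.93-fold lower, adjusted p = 0.00259), and the probe set 1426001_at fell by 0.75 ± 0.16 (adjusted p = 0.00079), also with no overlap. A gap in this direction was seen in 11.3% of all probe sets.

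In NRAS-off tumours the brighter Eomes probe set read 75.1, 91.7, 68.6, 111.5, 88.9 and 335. Replicates 1 to 5 lay below the lowest vehicle tumour and replicate 6 above the highest. With all 6 tumours the change was -0.48 ± 0.23 and did not pass (adjusted p = 0.0913), whereas without replicate 6 it fell by 0.77 (adjusted p = 1.73e-06). Probe set 1426001_at read 48.3 to 72.1 in replicates 1 to 5, 160.5 in replicate 6 and 107 to 141 in vehicle tumours. That probe set fell by 0.60 ± 0.16 with all tumours (adjusted p = 0.00356) and by 0.79 without replicate 6 (adjusted p = 5.37e-07). Between the treated groups the probe sets did not pass (0.48 ± 0.23, adjusted p = 0.113, and 0.16 ± 0.16, adjusted p = 0.468).

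The other 7 tested genes did not pass between MEK inhibitor and vehicle tumours. The changes were -0.33 ± 0.30 for Cd3d, -0.01 ± 0.10 for Cd3e, 0.04 ± 0.41 for Cd3g, -0.07 ± 0.09 for Cd8a, -0.18 ± 0.27 for Klrd1, -0.11 ± 0.42 for Nkg7 and 0.02 ± 0.11 for Il2rb. Their adjusted p ran from 0.415 (Cd3d) to 0.96 (Cd3e). The errors were widest for Nkg7 and Cd3g, so in this fit these limit a change least. All 3 groups shared a single estimate of spread, so the NRAS-off tumours also widened these errors. The log2 SD of Cd3g was 1.3 in NRAS-off, 0.34 in vehicle and 0.293 in MEK inhibitor tumours. For Nkg7 it was 1.25, 0.598 and 0.302 in the same order.

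The 6 NRAS-off tumours differed among themselves by more than the other groups did. Cd3g spanned 15.3-fold from its lowest to its highest NRAS-off tumour, against 2.55-fold in vehicle and 2.22-fold in MEK inhibitor tumours. Nkg7 spanned 11.5-fold against 3.06-fold and 2.05-fold, Cd3d 7.39-fold against 2.06-fold and 1.46-fold, and Klrd1 5.39-fold against 1.79-fold and 1.95-fold. Replicate 6 was the highest NRAS-off tumour for 9 of 10 genes and replicate 4 the second for 7 of 10. Over all 33777 tested probe sets, replicates 6 and 4 were each the highest in 13.7%. Replicate 6 exceeded all 12 tumours of the other groups in 10 of 10 genes, replicate 4 in 9, replicate 5 in 8, replicate 3 in 6, replicate 2 in 3 and replicate 1 in 2. The numbers 1 to 6 name tumours and have no order.

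With replicate 6 left out, the count against vehicle was 5 genes higher and 1 lower of 8, and the median change was 0.58. With replicates 4 and 6 left out it was 4 higher and 1 lower, and the median was 0.47. The 4 were Cd3d (0.61, adjusted p = 0.0133), Cd3g (1.21, adjusted p = 0.000737), Klrd1 and Il2rb (0.33, adjusted p = 0.00667). Against MEK inhibitor tumours 5 of 8 were higher under either omission. The shares of all genes called higher or lower in these fits are not given here. The counts were therefore not set against a background, and the same holds for later lists counted with tumours left out.

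**Figure D4:**
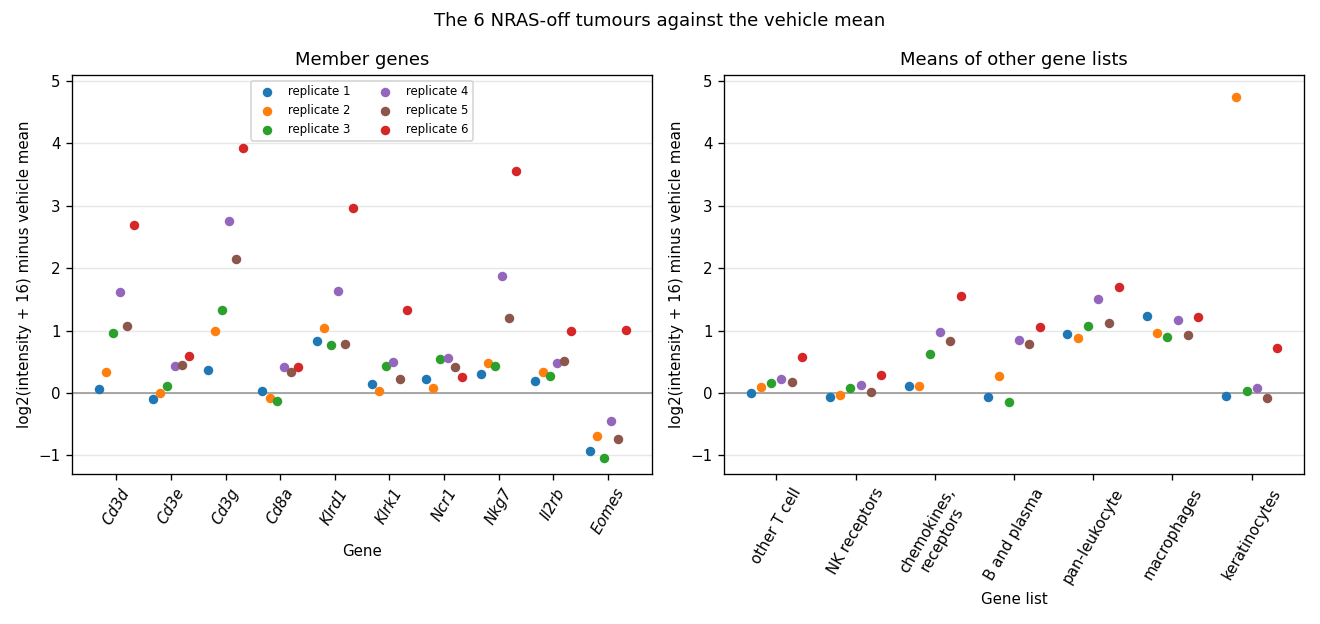
Each NRAS-off tumour minus the vehicle mean, on the log2(intensity + 16) scale, for the 10 marker genes (left) and for the mean of 7 other gene lists (right). Replicate 6 (red) is highest in 9 of 10 marker genes, replicate 2 (orange) stands at 4.75 in the keratinocyte list, and the macrophage list lies between 0.89 and 1.23 in all 6 tumours.

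Replicate 6 also stood apart in genes outside the members, which were looked at after their values were seen. In this tumour 62 probe sets were at least 2-fold above the highest of the other 17 tumours after adding 16 to each intensity, and 5 of the 62 belonged to members. The corresponding number was 13 in NRAS-off replicate 4, 150 in the keratin-rich replicate 2 and 12 in vehicle replicate 2. It was at most 2 in each of the remaining 14 tumours. The largest excess was for Gzmk, a granzyme of T cells and NK cells, at 954 against at most 191 elsewhere. Ccl5, a chemokine made by activated T and NK cells, read 4279 against at most 1198, and the programmed death receptor gene Pdcd1 read 94.3 against at most 31.0. Klrc1, which encodes an NKG2 partner of CD94, read 97.6 on probe set 1425005_at against at most 20.9. Interferon-inducible GTPase genes were among the highest as well. Igtp read 7395 against at most 2679, Irgm2 3206 against at most 1252 and Gbp8 990 against at most 417. The chemokine genes Cxcl9 and Cxcl10 read 6343 and 1738.5, against at most 2707 and 723. Immunoglobulin and hair genes were also high: Igkv6-14 read 238 against at most 54.6, and the hair keratin-associated gene Krtap15 read 134 against at most 22.2. Whether skin or B cell transcript in this tumour has a part in the marker levels was not tested.

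T cell receptor segments, also looked at after their values were seen, bear on whether the hosts held T cell transcript. Their adjusted p do not account for that choice. The Trbv1 probe set 1452205_x_at read 52.5, 118, 118, 266, 267 and 689.5 in NRAS-off replicates 1 to 6, against 34.9 to 66.4 in vehicle and 28.7 to 42.9 in MEK inhibitor tumours. It lay above both other groups in all NRAS-off tumours but replicate 1. The Trav9d-3 probe set 1426113_x_at read 173, 215, 279.5, 556, 378.5 and 902, against 195 to 299.5 in vehicle and 139.9 to 189.8 in MEK inhibitor tumours. NRAS-off replicates 4, 5 and 6 exceeded the vehicle range. The gamma chain segment Trgv4 (1422189_x_at) read 53.1 in replicate 6, 32.8 in replicate 4 and 20.2 to 30.3 in the other tumours. The Trav9d-3 probe sets 1426168_a_at and 1452405_x_at read 477 and 934 in replicate 6 and 252 and 519 in replicate 4. Vehicle tumours read at most 118 and 274 on these, and MEK inhibitor tumours at most 75.7 and 189. In NRAS-off tumours against vehicle, Trbv1 1452205_x_at rose by 1.62 ± 0.36 (adjusted p = 0.000686) and Trav9d-3 1452405_x_at by 0.71 ± 0.27 (adjusted p = 0.0287). Trav9d-3 1426113_x_at (0.54 ± 0.26, adjusted p = 0.091) and 1426168_a_at (0.73 ± 0.31, adjusted p = 0.0539) did not pass. Trgv4 1422189_x_at rose by 0.29 ± 0.10 (adjusted p = 0.0192). In replicate 6 Trgv1 (1427608_a_at) read 46.9 and another Trgv4 probe set, 1450521_a_at, read 44.4. Vehicle and MEK inhibitor tumours read at most 24.4 and 21.0 on these. Several other segment probe sets were flat. A second Trbv1 probe set, 1433108_at, stayed at 23.1 to 38.8 in all tumours. Of the remaining Trav9d-3 probe sets, 1427653_at stayed at 17.1 to 26.6 and 1427766_at at 13.5 to 17.8. Trbv13-2 stayed at 16.7 to 32.7, Trav12n-1 at 17.6 to 24.2, Trav13-5 at 12.2 to 18.1 and the Tcra probe set 1443140_at at 10.8 to 16.9. These flat probe sets read within the range of the olfactory receptor means, 9.51 to 42.6, so they may report no transcript. The probe sets named for these segments therefore differ, and which segments each of them reads was not settled here.

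Other genes of NK and T cells were read from lists chosen with these data known, and their counts come from the same fit. For this and the later lists, the shares over all genes were 31.5% higher and 27.1% lower in NRAS-off tumours against vehicle. Under the MEK inhibitor they were 23.8% and 20.5%. Of receptor adapters and proximal kinases, 11 of 14 tested rose in NRAS-off against vehicle and none fell (median 0.67). Fcer1g rose by 1.33 ± 0.23, Tyrobp, which encodes the adapter DAP12, by 1.31 ± 0.20, the kinase gene Syk by 1.15 ± 0.10 and Hcst, the NKG2D adapter gene, by 0.87 ± 0.14. Myeloid cells use Fcer1g, Tyrobp and Syk as well. Among genes used downstream of the T cell receptor, Lcp2 rose by 0.80 ± 0.16, Vav1 by 0.78 ± 0.14 and Prkcq by 0.72 ± 0.15. Cd247, the zeta chain, rose by 0.39 ± 0.15 (adjusted p = 0.0362), and the value of Zap70 was -0.03 ± 0.06 (adjusted p = 0.687). Lat (0.37 ± 0.16, adjusted p = 0.0596) and Sh2d2a (0.11 ± 0.09, adjusted p = 0.285) did not pass either. Under the MEK inhibitor 1 of the 14 rose and 6 fell, with Lcp2 down 1.18 ± 0.16 as the largest change. The others that fell were Tyrobp, Fcer1g, Hcst, Vav1 and Zap70.

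Of the other NK receptor genes 22 were read and 10 tested, and 3 rose and 3 fell in NRAS-off tumours (median 0.01). These counts, too, were near the shares over all genes. Slamf7 rose by 0.85 ± 0.17, Klrb1f by 0.75 ± 0.17 and Slamf6 by 0.46 ± 0.15, whereas Klrb1a fell by 0.53 ± 0.13, Cd244a fell by 0.36 ± 0.08 and Cd160 fell by 0.22 ± 0.06. The brightest Klrc1 probe set was below the filter, at 13.4 to 25 in all tumours. Lck and Klrb1c were not analysed here. Under the MEK inhibitor none of the 10 rose, Cd244a fell by 0.66 ± 0.08 and Klrg1 fell by 0.44 ± 0.14.

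Among cytotoxic effectors, 11 of 15 rose and 2 fell in NRAS-off tumours (median 0.68), and without replicates 4 and 6 the counts were 8 and 1. Gzma, a granzyme of NK and T cells, read 37.9 to 131 (median 78.9) against 24.6 to 33.1 (median 27.7) in vehicle and rose by 1.04 ± 0.20 (adjusted p = 0.000173). Gzmb went the other way, from 192 to 996 in vehicle down to 32.5 to 162, a change of -2.84 ± 0.36 (adjusted p = 1.38e-06). Gzmb also fell by 1.68 ± 0.36 under the MEK inhibitor (adjusted p = 0.000814). Granzyme genes outside this list, looked at after their values were seen, fell as well in NRAS-off tumours. Gzmd fell by 4.74 ± 0.27 on probe set 1420343_at, Gzme by 3.08 ± 0.26, Gzmc by 1.78 ± 0.22 and Gzmg by 1.13 ± 0.16. Under the MEK inhibitor they fell by 1.73 ± 0.27, 1.35 ± 0.26, 1.33 ± 0.22 and 1.01 ± 0.16 in the same order. The counts of this list therefore do not stand for all granzyme genes. Prf1, the perforin gene, fell by 0.16 ± 0.06 in NRAS-off tumours (adjusted p = 0.0315), a call lost without replicate 6 (adjusted p = 0.0845). Ifng stayed below the filter, at 40.5 in replicate 6 and at most 17.1 in vehicle. Serpinb9, an inhibitor of granzyme B, rose by 1.23 ± 0.21 and Ccl3 by 1.05 ± 0.16. Ccl5 rose by 1.57 ± 0.57 (adjusted p = 0.0247), a call lost without replicate 6 (adjusted p = 0.0659).

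Of the transcription factor genes of these lineages, 5 of 14 were higher and 3 lower in NRAS-off tumours (median 0.08). Both counts were near the shares over all genes. Ikzf1 rose by 1.15 ± 0.15 and Bcl11b by 0.76 ± 0.22, whereas Lef1 fell by 2.93 ± 0.11 and Prdm1 fell by 0.66 ± 0.16. Lef1 also fell by 1.57 ± 0.11 and Prdm1 by 1.38 ± 0.16 under the MEK inhibitor, in which 4 of 14 rose and 6 fell. Tbx21, the T-box partner of Eomes, was below the filter, at 41.4 in NRAS-off replicate 6 and 14.9 to 23.3 in vehicle and MEK inhibitor tumours.

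In the interleukin-2 and interleukin-15 pathway, 8 of 14 genes rose and 2 fell in NRAS-off tumours (median 0.33). Il15, the survival cytokine of NK cells, read 84.5 to 164 (median 95.5) in NRAS-off, 27.7 to 61.6 (median 37.7) in vehicle and 32.1 to 60.2 (median 41.0) in MEK inhibitor tumours. NRAS-off tumours lay above both other groups without overlap. Such a gap was seen in 17.3% of probe sets against vehicle and in 12.0% against MEK inhibitor. Il15 rose by 1.10 ± 0.16 against vehicle (adjusted p = 6.67e-06). Il15ra, which presents the cytokine, rose by 1.01 ± 0.13, Il18 by 1.12 ± 0.06 and Il18r1 by 1.31 ± 0.22, whereas Il18rap fell by 1.03 ± 0.14. Under the MEK inhibitor Il15 changed by 0.05 ± 0.16 and Il15ra by 0.03 ± 0.13, and 3 of the 14 rose and 1 fell.

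The ligands of NK receptors on the array numbered 9, of which 6 were tested, 3 rose and 1 fell in NRAS-off tumours (median 0.19). Cd48 rose by 1.98 ± 0.30, Clec2d by 1.84 ± 0.11 and Cadm1 by 0.53 ± 0.13, and Pvr, a ligand of CD226, fell by 0.88 ± 0.08. Under the MEK inhibitor Cadm1 rose by 1.01 ± 0.13 and Clec2d by 0.51 ± 0.11, Cd48 fell by 0.86 ± 0.30 and Pvr fell by 0.67 ± 0.08. Lymphocyte chemokines and their receptors gave 7 of 9 higher and none lower in NRAS-off tumours (median 0.66), and 5 higher without replicate 6. Cxcl9 rose by 2.68 ± 0.72 and Cxcl10 by 1.64 ± 0.42, both ligands of CXCR3, whose gene Cxcr3 rose by 0.56 ± 0.16. In MEK inhibitor tumours none of the 9 rose and 2 fell, Cx3cr1 by 0.57 ± 0.16 and Cx3cl1 by 0.47 ± 0.10.

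Other T cell genes gave 8 of 15 higher and 2 lower in NRAS-off tumours (median 0.28), and 5 and 2 without replicates 4 and 6. Cd2, an adhesion receptor of T and NK cells, read 30.3 to 199.8 (median 50.6) against 22.3 to 28.4 in vehicle and rose by 0.92 ± 0.25. Cd5 rose by 0.72 ± 0.13, Cd8b1 by 0.51 ± 0.17, Cd28 by 0.42 ± 0.10 and Cd4 by 0.32 ± 0.07. Thy1, which fibroblasts and neural crest cells also carry, read 3007 to 4862 in vehicle and 2643 to 3300.2 in NRAS-off tumours and fell by 0.37 ± 0.10. Foxp3 and Rag1 were below the filter in all groups, at 18.3 to 27.5 and at most 12.7. Il7r, a receptor of T cells and innate lymphoid cells, rose by 1.73 ± 0.21, and 1 of 15 other T cell genes fell under the MEK inhibitor while none rose.

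Markers of other cells moved in the same comparisons. All 12 pan-leukocyte genes rose in NRAS-off tumours (median 1.19), and Ptprc, the CD45 gene, rose by 1.37 ± 0.16. Their summed intensity was 15746 to 26802 in NRAS-off, 6836 to 9285 in vehicle and 3598 to 6079 in MEK inhibitor tumours. In MEK inhibitor tumours 10 of the 12 fell (median -0.88), and Ptprc fell by 0.85 ± 0.16. Macrophage markers summed to 68401 to 85483, 25564 to 42533 and 12246 to 28673 in the same order, with 13 of 15 higher in NRAS-off and 11 of 15 lower under the MEK inhibitor. Dendritic cell markers gave 9 of 10 higher and none lower in NRAS-off tumours, with sums of 1905 to 3960, 1145 to 1982 and 865 to 1151.

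B and plasma cell markers gave 5 of 11 higher and none lower in NRAS-off tumours, and 2 of 10 without replicates 4 and 6. Their sums were 1392 to 8929, 944 to 4017 and 924 to 3724, and the NRAS-off replicates 4, 5 and 6 were the highest, at 8929, 7189 and 8399.7. The mean of the B cell list was 0.85, 0.79 and 1.05 above vehicle in these 3 tumours and at most 0.27 in replicates 1 to 3. The macrophage mean was 0.89 to 1.23 above vehicle in all 6. The 3 tumours with high B cell transcript were thus also those with the highest Cd3d, Cd3e, Cd3g and Nkg7, and their part in the marker changes was not tested.

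Of the remaining marker lists, 4 of 8 neutrophil genes rose and 1 fell, 5 of 9 mast cell genes rose and 1 fell, and 2 of 3 platelet genes rose in NRAS-off tumours. All 9 skeletal muscle and all 9 endothelial genes rose, 7 of 8 fibroblast genes rose and 1 fell, 4 of 7 melanocytic genes rose and 1 fell, and 0 of 9 keratinocyte genes were called. Muscle markers summed to 28870 to 43956 in NRAS-off, 2737 to 15163 in vehicle and 17275 to 40903 in MEK inhibitor tumours. Keratinocyte markers summed to 706 to 33257, 552 to 908 and 617 to 1438. The part of these cells in the marker changes was not tested.

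The genes whose pattern over the 18 tumours was most like the mean of the 8 tested members were sought among all genes. They were Gimap7 (Pearson r = 0.975), Cd2 (0.975), Trbv1 (0.961), Cxcr6 (0.959) and Cxcr3 (0.955). Without NRAS-off replicate 6 the values were 0.947, 0.942, 0.932, 0.912 and 0.888 over 17 tumours. All tumours share the group difference and the same array scale, so these are descriptions. Gimap7, a GTPase gene of lymphocytes, read 45.9 to 569.6 (median 109.7) in NRAS-off, 28.7 to 91.2 (median 33.6) in vehicle and 17.9 to 40.4 (median 30.1) in MEK inhibitor tumours.

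The nearest genes differed between members. For Cd3g they were Gbp8 (0.97), Acap1 (0.962) and Trbv1 (0.96), and for Cd3d Gimap7 (0.977), Gbp8 (0.963) and Trbv1 (0.961). Klrd1 was closest to Spn (0.947), which encodes CD43, and to Cxcr3 (0.946). Nkg7 was closest to Gimap7 (0.964) and Ccl5 (0.956), and Il2rb to Trbv1 (0.92) and Cd2 (0.908). Cd3e was closest to Gimap3 (0.886) and the B cell gene Ms4a1 (0.869), and Cd8a to the immunoglobulin gene Iglv1 (0.942) and the plasma cell gene Mzb1 (0.898). Eomes stood alone with Tnfaip3 (0.872), Tmem243 (0.844) and Cenpv (0.837), none of them among the nearest 3 genes of another member.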

How the data were processed

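RNA of 18 tumours was read on one-colour Affymetrix arrays. The deposited values are probe set intensity on a linear scale, which the authors summarised and scaled; the submitters' processing notes name MAS5 and RMA without saying which made the table. If another transformation was used, folds would be on another scale. No batch is given, and the number of arrays limits the precision.

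Of 45037 probe sets, 34945 had 1 platform symbol, 932 several and 9160 none; a gene was counted by its brightest probe set. Values were analysed as log2(intensity + 16), so folds of dim genes are understated. Probe sets with a mean above the 25th percentile (33777) were fitted with limma 3.58.1 in R 4.3.3, 3 groups together (15 residual degrees of freedom, prior 4.12), and p adjusted by Benjamini-Hochberg over all of them per contrast. On simulated data for NRAS-off against vehicle (33777 probe sets) the fit recovered 85.1%, 93.5% and 98.3% of 1.5-, 2- and 4-fold changes, with 12 false calls. The simulated spread was equal in all groups and few probe sets were changed, unlike in the data, so these rates may not hold for the members. Members and lists were chosen with earlier results of these data known.

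Named were all members, up to 4 called genes of each list with the largest change, some lineage genes always shown, and the genes most like the members. Others named were chosen after their values were seen, as said there. Alternatives were the filter, normalization, pseudocount, prior, array weights, samples in the fit, a replicate block and leaving out tumours. Figures used matplotlib 3.10.9.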

Additional observations from a re-analysis of the deposited data

Results flagged for a closer look

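In 8 of the 48 sets of 6 values (16 marker probe sets in 3 groups), 1 tumour lay farther from the rest than Dixon's 95% limit allows. The values were linear intensities, and the limit was not applied on the log2 scale of the fits. For normally distributed values chance gives about 1 in 20 such sets. Whether these intensities are so distributed was not tested, and the probe sets share tumours. All 8 were NRAS-off replicate 6 as the highest tumour. Its intensities were 815 for Nkg7, 386 for Klrd1, 334.8 and 160.5 for the Eomes probe sets, 95.1 and 61.1 for Cd8a probe sets 1444078_at and 1451673_at, 89.4 for Il2rb and 72.6 for Klrk1. The next tumour of the group read 242.5, 145, 111.5, 72.1, 38.7, 29.8, 59.8 and 33.7. For Cd3g and Cd3d, replicate 6 was the highest tumour but did not pass the limit.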

How the results depend on the processing

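With the filter at the 50th percentile 3 member genes rose in each comparison with NRAS-off tumours, because 4 genes were then tested. With 1 probe set per gene 8899, 6787 and 7052 probe sets were called in NRAS-off against vehicle, MEK inhibitor against vehicle and NRAS-off against MEK inhibitor, because fewer were tested, against 18480, 13733 and 13691. The count of member genes that fell against vehicle in NRAS-off tumours was 0 to 1 over fits that left out 1 tumour, and 1 without NRAS-off replicates 4 and 6, an omission chosen after seeing the data, as was the fit of Klrk1 and Ncr1 without a filter and replicate 6. That gene was Eomes. Over single probe sets 900 alternatives were counted as the same, 37 lost a call, 16 gained one and 18 changed sign. Of these 18, 0 had a value called in either fit, and the cause was not tested. For tested probe sets the same means an unchanged direction and call. Probe sets below the filter had no call to keep and were counted as the same by the size of their change. Over fits that left out 1 tumour, MEK inhibitor minus vehicle ran from -0.0466 to 0.0454 for Cd3e, -0.064 to 0.146 for Cd3g, -0.206 to 0.0462 for Nkg7, -0.0513 to 0.1 for Cd8a 1440164_x_at, -0.0131 to 0.0776 for Il2rb 1448759_at and -0.0672 to 0.0166 for Il2rb 1417546_at. NRAS-off minus MEK inhibitor ran from -0.0327 to 0.259 for Eomes 1426001_at, and was -0.067 without NRAS-off replicates 4 and 6.

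Same-numbered tumours were not treated as pairs: 6 of 18 same-numbered pairs correlated over 0.1 (range -0.121 to 0.339). Pairs with different numbers ran from -0.253 to 0.213, so whether the numbers pair the tumours was not settled. With the replicate number as a block 18257, 13650 and 13518 probe sets were called and 6, 0 and 7 member genes rose; the added gene was Cd3e against MEK inhibitor (adjusted p = 0.0272). The block changed no other member call.

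The Cd3e rise against vehicle was also lost with no filter, median centring (adjusted p = 0.0824), quantile normalization (adjusted p = 0.0999), a pseudocount of 64, the trended prior and the fit of the compared groups alone; its cause was not tested.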
